A study of Mus musculus with 4 samples.

Results

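The genes described here are 7 genes of myelin and of the oligodendrocytes that make it: Mbp, Mog, Mag, Mobp, Cnp, Mal and Cldn11. They were found as the probe sets that the platform annotation assigns to one of these symbols alone, a rule that uses no measured value. The 7 genes themselves were chosen with earlier results of these data known. The 7 genes had 13 probe sets among 12488 on the array, which cover 8252 named genes in all. The samples were 4 preparations of total RNA from the CA1 area of the hippocampus of young male C57BL/6J mice, hybridised to 1 Affymetrix mouse array each. All 4 were controls, from mice that an experimenter had handled without giving any other treatment, and their RNA was taken 1, 2, 4 or 6 h after the last shock of experimental animals that are not analysed here. Each hour has 1 array and the number of mice behind it was not given in the sources used here, so a difference between 2 hours cannot be checked in a replicate. A mean ± SD below is taken over the 4 arrays (n = 4) and mixes the hours with whatever else differed between samples.

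Myelin is a spiral of oligodendrocyte membrane wrapped around an axon. Its compact layers are held together by proteins such as myelin basic protein, while other proteins sit on its outer face, on its inner face next to the axon, or in tight junctions between its turns. CA1 is mainly a field of pyramidal neurons, bordered by the white matter of the alveus and fimbria, whose oligodendrocytes are a rich source of these transcripts. The comparison asks how steady the transcripts were between control dissections and whether they varied together. In bulk tissue, fewer oligodendrocytes and less RNA per oligodendrocyte cannot be told apart.

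All values are scaled probe set intensities as the authors deposited them, called signals here. A signal can be set against that of the same probe set on another array, not against another gene. For log2 values, signals below 36.8, the 20th percentile of the 4 arrays pooled, were raised to that floor, and 7237 probe sets with a mean log2 at or above the 40th percentile, a signal of 116, were tested. Of the 13 myelin probe sets 12 passed this filter, covering 6 of the 7 genes. The 2 h array stood apart in 1 of 2 RNA quality measures: for Gapdh, the 3' signal divided by the 5' signal came to 1.08 at 2 h and to 4.10, 3.62 and 3.95 at 1, 4 and 6 h. The same ratio for Actb was 2.27, 1.72, 2.59 and 2.93 at 1, 2, 4 and 6 h. Log2 differences from the 1 h array had an SD over all tested probe sets of 0.66 for the 2 h array and 0.54 for the 4 h and the 6 h array alike.

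Mbp encodes myelin basic protein, which seals the cytoplasmic faces of compact myelin, and it was steady over the 4 arrays. Its brighter probe set (96311_at) gave signals of 7791.5, 9349.7, 7979 and 7387 at 1, 2, 4 and 6 h, with a mean of 8127 ± 852 (SD, n = 4). The dimmer one (96310_at) gave 751, 851, 715 and 737, with a mean of 763 ± 60.2 (SD, n = 4). On both probe sets the 2 h array was the highest, by 1.17-fold and 1.13-fold over the next highest array, and the other 3 arrays lay within 1.08-fold and 1.05-fold of each other.

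Mog, which encodes an immunoglobulin-like protein of the outermost myelin surface, varied least. Its probe set (103987_at) gave 478, 495, 468 and 481 at 1, 2, 4 and 6 h, a mean of 481 ± 11.2 (SD, n = 4), so that the highest array was 1.06 times the lowest. The 2 h array was nominally the highest, but its log2 difference of 0.05 from 1 h turned to -0.02 after quantile normalization and -0.07 after centring arrays on their medians.

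Mal, a 4-span proteolipid of compact myelin that takes part in membrane sorting, was similarly steady. The signals of its probe set (99089_at) were 1837.5, 2157, 2160.3 and 1801, with a mean of 1989 ± 197 (SD, n = 4). The 2 and 4 h arrays were level with each other, the 1 and 6 h arrays were level with each other, and the gap between these pairs made the whole range 1.20-fold.

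Cldn11 encodes the claudin that forms tight junctions between myelin turns. Its brighter probe set (100044_at) gave 777, 897.5, 838 and 542, a mean of 764 ± 156 (SD, n = 4), and the dimmer one (161529_r_at) gave 99.7, 122.5, 127 and 122, a mean of 118 ± 12.3 (SD, n = 4). The brighter probe set was lowest at 6 h, 0.698 times its 1 h signal, whereas the dimmer one was 1.22 times its 1 h signal at 6 h. The 2 probe sets therefore disagreed about the 6 h array, and the name of the dimmer one marks an incomplete or shared set of probes. The mean signal of the dimmer one, 118, was also close to the filter signal of 116.4, and its 1 h signal of 99.7 lay below it.

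Mag encodes myelin-associated glycoprotein, an adhesion protein of the inner myelin layer that faces the axon, and its 2 probe sets ranked the arrays alike over a wide range. The brighter probe set (102405_at) gave 566, 1072, 775.5 and 614 at 1, 2, 4 and 6 h, a mean of 757 ± 228 (SD, n = 4). The dimmer one (161846_r_at) gave 90.3, 159.9, 122 and 109, a mean of 120.45 ± 29.4 (SD, n = 4). Both put 2 h highest, then 4 h, 6 h and 1 h, and the 2 h signal was 1.89 and 1.77 times the 1 h signal. Without the 2 h array the range was 1.37-fold and 1.36-fold. The name of the dimmer one, like that of the dimmer Cldn11 probe set, marks an incomplete or shared set of probes. Its mean signal of 120.45 was also close to the filter signal of 116.4. Its ranking of the arrays is therefore not a clean check of the brighter one.

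Mobp encodes a small basic protein of compact myelin whose mRNA is carried into oligodendrocyte processes, and its 4 probe sets disagreed. The brightest (100536_at) gave 11091, 8925, 16716 and 12594 at 1, 2, 4 and 6 h, a mean of 12332 ± 3288 (SD, n = 4). On this one the 2 h array was the lowest and the 4 h array the highest, a range of 1.87-fold. The second brightest (99047_at) gave 1911, 5613, 2481 and 1321, a mean of 2831 ± 1914 (SD, n = 4). Of the remaining ones, 99048_g_at, annotated to the same source sequence as 99047_at, gave 478, 2231, 697 and 614, a mean of 1005 ± 822 (SD, n = 4), and 99046_at gave 643, 1144, 863 and 586, a mean of 809 ± 254 (SD, n = 4). These 3 probe sets were all highest at 2 h, at 2.94, 4.67 and 1.78 times the 1 h signal, whereas the brightest one was at 0.805 times. Without the 2 h array the 4 probe sets ranged over 1.51-fold, 1.88-fold, 1.46-fold and 1.47-fold, from the brightest down in order of mean signal. The positions of the probes within the Mobp transcripts are not given in the tables used here, and the part that the low 3' over 5' ratio of the 2 h array had in this disagreement was not tested.

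Cnp encodes CNPase, an enzyme of the cytoplasmic channels of myelin, and was measured by a single dim probe set (93072_at). It gave 16.2, 47.6, 31.1 and 37.8 at 1, 2, 4 and 6 h. The 1 and 4 h values lay under the floor of 36.8 and the 6 h value just above it, so the probe set did not pass the filter and no fold is given. CNPase is a defining marker of oligodendrocytes, and why its probe set was dim was not tested.

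**Figure D1:**
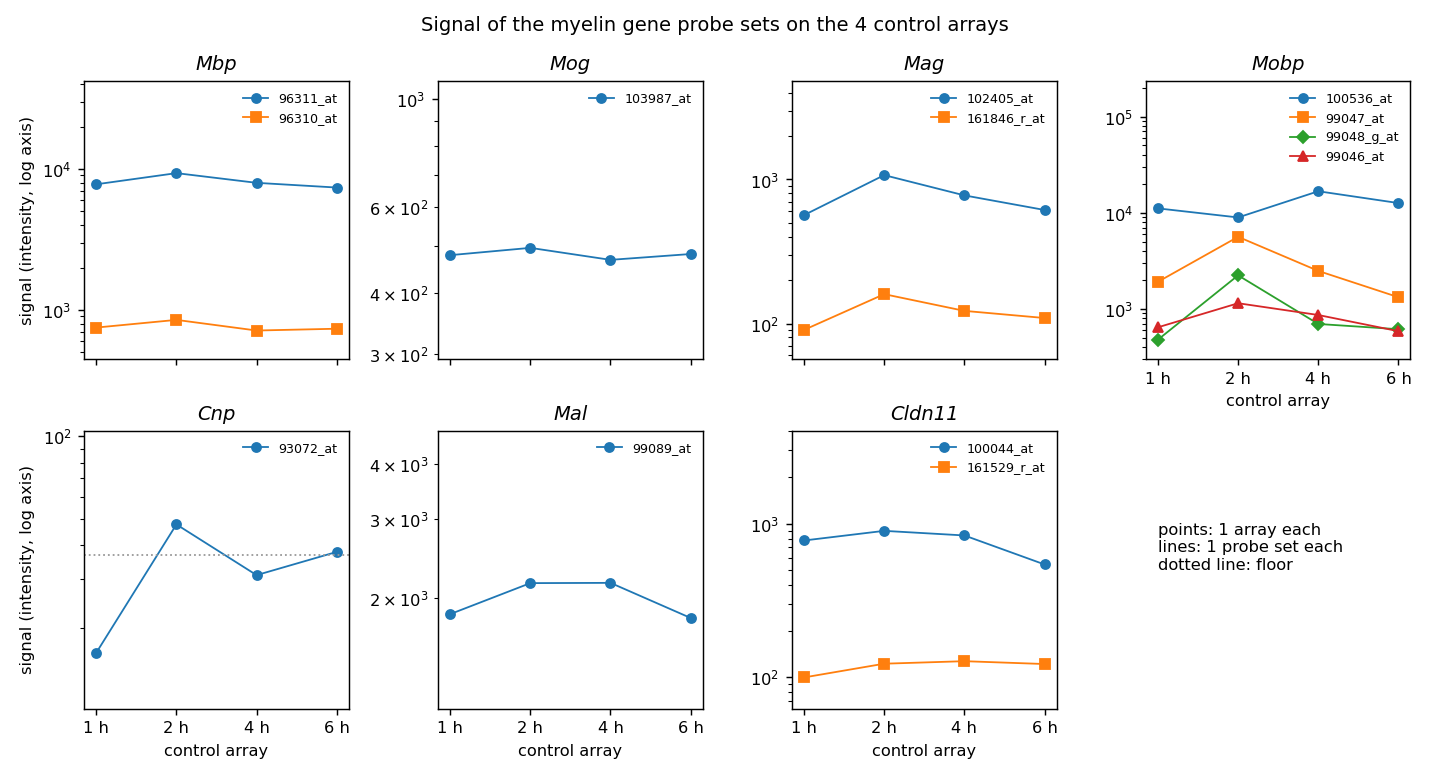
Signal of each of the 13 probe sets (y axis, intensity on a log axis with its own limits in each panel) on the 1, 2, 4 and 6 h control arrays (x axis), 1 panel per gene and 1 line per probe set. The floor of 36.8 is a dotted line, which falls within the axis limits of the Cnp panel alone. Mbp, Mog and Mal are nearly flat, both Mag lines peak at 2 h, 3 of the 4 Mobp lines peak at 2 h while the brightest dips there, and Cnp straddles the floor.

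The sequences before the start sites of 4 of these genes are shown because they differ in a motif of the SOX family, to which the oligodendrocyte factor Sox10 belongs. RefSeq promoters of GRCm38.p6 were matched by symbol for 6 of the 7 genes, not for Mbp. The 250 bases before the annotated start were searched on both strands for ACAAAG and ACAATG, the first of which reads CTTTGT on the other strand. Each sequence runs 5' to 3' on the strand of its gene, and capitals mark a match.
Mobp: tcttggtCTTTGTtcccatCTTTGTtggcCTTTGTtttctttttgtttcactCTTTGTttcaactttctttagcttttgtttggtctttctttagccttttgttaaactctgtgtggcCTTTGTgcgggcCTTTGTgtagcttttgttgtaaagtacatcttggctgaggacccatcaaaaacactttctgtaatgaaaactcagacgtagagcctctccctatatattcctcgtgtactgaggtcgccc
Mag: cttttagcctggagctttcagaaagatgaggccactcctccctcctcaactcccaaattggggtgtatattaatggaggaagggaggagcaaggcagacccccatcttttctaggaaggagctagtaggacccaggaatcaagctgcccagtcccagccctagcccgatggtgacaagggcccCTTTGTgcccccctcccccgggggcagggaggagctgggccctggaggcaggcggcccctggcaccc
Cnp: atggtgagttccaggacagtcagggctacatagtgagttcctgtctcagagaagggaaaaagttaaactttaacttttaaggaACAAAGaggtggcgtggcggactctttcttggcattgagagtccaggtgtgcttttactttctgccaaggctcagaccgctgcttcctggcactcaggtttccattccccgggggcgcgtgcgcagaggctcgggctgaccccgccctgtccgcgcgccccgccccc
Mog: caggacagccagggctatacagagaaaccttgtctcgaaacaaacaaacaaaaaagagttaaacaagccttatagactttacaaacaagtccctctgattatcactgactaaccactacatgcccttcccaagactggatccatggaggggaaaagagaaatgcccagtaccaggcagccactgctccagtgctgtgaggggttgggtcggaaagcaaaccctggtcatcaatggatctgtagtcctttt
They lie at chr9:120149492-120149741 on the plus strand for Mobp, chr7:30914923-30915172 on the minus strand for Mag, chr11:100574689-100574938 on the plus strand for Cnp and chr17:37023399-37023648 on the minus strand for Mog. The Mobp promoter held 6 matches to ACAAAG, between 243 and 120 bases before the start. Of 27024 promoters searched in the same way, 16.5% held at least 1 match to ACAAAG, 6 promoters held 4 or more, and that of Mobp alone held 6. Mag and Cnp had 1 match each, at 67 and 167 bases before the start, and Mog, Mal and Cldn11 had none. ACAATG, present in 10.9% of all promoters, was in none of the 6. These are matches of letters, and nothing in the array data measures binding there.

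Set against the 1 h array, 11 of the 12 tested myelin probe sets had a higher signal at 2 h, against 49.7% of all tested probe sets. Over the brightest probe set of each of the 6 genes the median log2 difference was 0.22 at 2 h, 0.17 at 4 h and -0.01 at 6 h, beside -0.0032, 0.02 and 0.02 over all tested probe sets. After centring arrays on their medians, the medians of the 6 genes were 0.096 at 2 h, 0.062 at 4 h and -0.149 at 6 h. Centring lowered every probe set alike, by 0.12, 0.11 and 0.14, so the distance of the 6 genes from all tested probe sets stayed the same. Probe sets of one gene share their RNA, so the 12 are not independent. At least 2-fold higher at 2 h were 2 of the 12, both of Mobp, beside 6.92% of all tested probe sets, and at least 2-fold lower were 0, beside 3.29%. At 4 h 0 of the 12 were at least 2-fold higher, beside 3.69%, and 0 were at least 2-fold lower, beside 2.51%. At 6 h the counts were again 0 and 0, beside 3.74% higher and 2.79% lower. At 4 h 10 of the 12 were above their 1 h signal, beside 51.3% of all tested probe sets, and the exceptions were the dimmer Mbp probe set and Mog. At 6 h 6 of the 12 were above it, beside 52.5%.

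**Figure D2:**
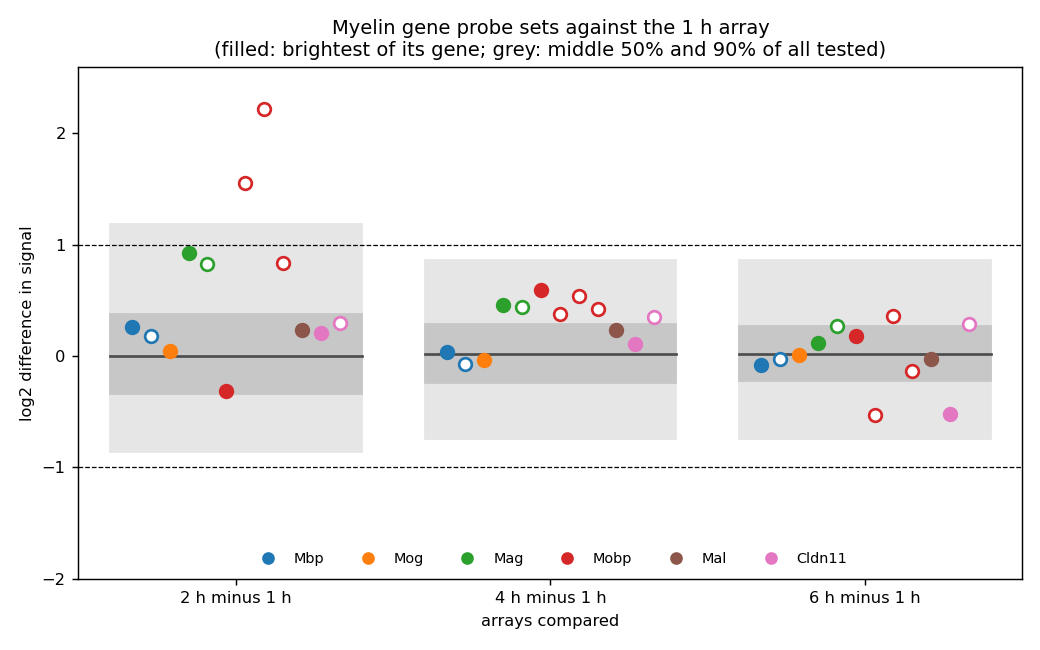
Log2 difference in signal of the 12 tested myelin probe sets from the 1 h array (y axis) at 2, 4 and 6 h (x axis), with filled points for the brightest probe set of a gene, open points for the others, the middle 50% and 90% of all tested probe sets in dark and light grey, their median as a line, and the 2-fold limits dashed. The 2 Mobp points above the upper limit at 2 h lie above the light grey band, and every other point lies within it.

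A trend over the hours was tested with limma as a slope of log2 signal per hour over the 4 arrays, adjusted over all tested probe sets. It called 0 of the 12 myelin probe sets, beside 0% of all 7237, and at an unadjusted p under 0.05 it gave 196 of all probe sets and 0 of the 12. Slopes ran from -0.21 ± 0.13 log2 per hour for the second Mobp probe set to 0.09 ± 0.07 for the brightest one (SE, 4 arrays). Among the others, the brighter Cldn11 probe set had -0.11 ± 0.07, the brighter Mbp probe set -0.03 ± 0.05, Mag -0.03 ± 0.09 and Mog -0.0044 ± 0.07. Every adjusted p by limma was 0.9996. A straight line over the hours cannot judge a signal that is high on the 2 h array alone.

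Over the 4 arrays, the median ratio of the highest to the lowest array was 1.71 for the 12 myelin probe sets and 1.46 for the brightest of each gene, beside 1.54 for all tested probe sets. Within a 1.5-fold range lay 5 of the 12, both Mbp probe sets, Mog, Mal and the dimmer Cldn11 one, beside 46.4% of all. Without the 2 h array the median ratio was 1.36 for the 12 and 1.34 for all tested probe sets. Among the 12, Mog had the narrowest range and 2 Mobp probe sets the widest. On the log2 scale the median range of the 12 was 1.25 times that of all tested probe sets, and 1.54 times with the stricter filter. It was 0.517 times when the probe sets of each myelin gene were averaged and all others left single. That ratio sets averages against single probe sets, and averaging probe sets that disagree narrows their range, so it gives no direction. The 12 lay above all tested probe sets and the brightest of each gene below, so the direction depends on the probe sets taken.

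**Figure D3:**
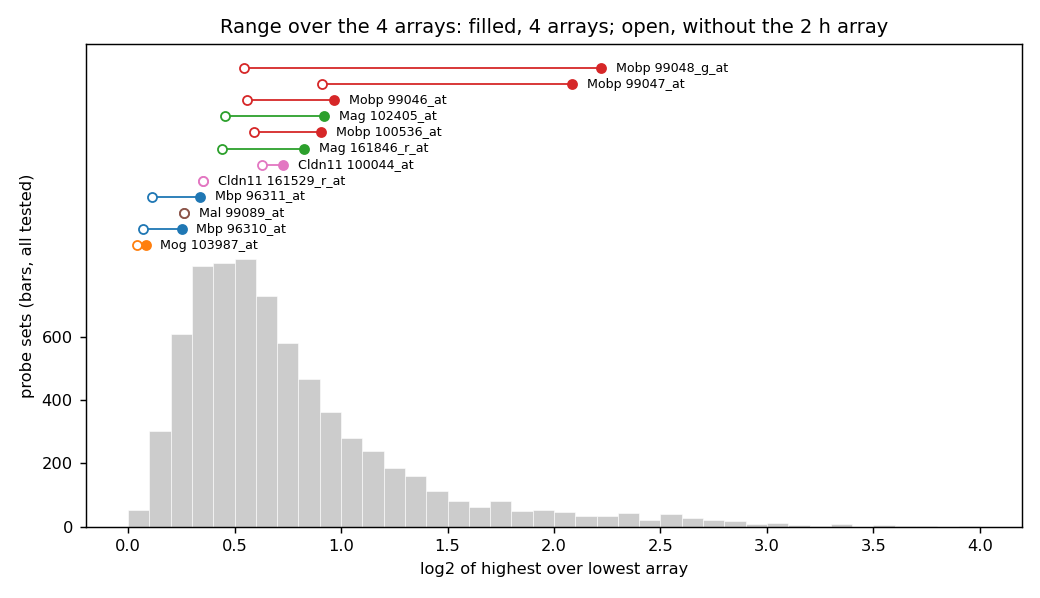
Range over the arrays as the log2 of the highest over the lowest array (x axis) for all tested probe sets (grey bars, number of probe sets, with ranges over 4 put in the last bar) and for each of the 12 tested myelin probe sets (points above the bars, placed in order), filled over all 4 arrays and open without the 2 h array. The filled points run from 1.06-fold for Mog to 4.67-fold for a Mobp probe set, and the 2 probe sets whose extremes do not include the 2 h array have filled and open points in one place.

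Whether the genes varied together can only be described, because 4 arrays are too few for a correlation across samples. The 2 h array was the highest in 9 of the 12 probe sets, beside 29.2% of all tested probe sets, and the count was 8 after centring arrays on their medians and 9 after quantile normalization. The exceptions were the brightest Mobp probe set, Mal and the dimmer Cldn11 one, each highest at 4 h, so that no probe set was highest at 1 or 6 h. Lowest were 5 of the 12 at 6 h, 4 at 1 h, 2 at 4 h and 1 at 2 h. The order 2, 4, 1 and 6 h from high to low was shared by the brighter Mbp and Cldn11 probe sets and 2 Mobp probe sets, beside 5.44% of all tested probe sets. The order 2, 4, 6 and 1 h was shared by both Mag probe sets and 1 of Mobp, beside 6.33% of all.

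The 6 genes differed in size at 2 h, and Mobp in direction. At 2 h the log2 signal stood 0.21 above the mean over the 4 arrays for Mbp, 0.04 above it for Mog, 0.55 above it for Mag, 0.12 above it for Mal and 0.26 above it for Cldn11, and at -0.43 for Mobp, each on its brightest probe set. The mean profile of the 6 brightest probe sets was -0.10, 0.13, 0.13 and -0.15 at 1, 2, 4 and 6 h. The distance of a probe set from that profile was taken as the root mean square over the 4 arrays. It was 0.0095 for Mal, 0.09 for Mbp, 0.13 for Mog, 0.19 for Cldn11, 0.26 for Mag and 0.35 for Mobp, with a median of 0.16, beside 0.28 for all tested probe sets. Of all tested probe sets, 15.7% lay at least as near to it as that median, and 66.0% lay at least as near as Mobp. The profile is shallow, so a nearly flat probe set also lies near it. Mog, with a range of 1.06-fold, lay nearer than Cldn11 and Mag, which stood higher at 2 h. The distance therefore cannot tell a shared shape from a flat one, and does not decide whether the genes varied together. The members also helped to make the mean they were compared with, which draws them towards it.

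The 5 other genes nearest to this profile over the 4 arrays were Ncl, Nfkbib, Gss, Thumpd1 and Car2, at distances of 0.016 to 0.023. Car2, a carbonic anhydrase abundant in oligodendrocytes, gave 4875.5, 5628, 5474.5 and 4614 at 1, 2, 4 and 6 h. Ncl, the nucleolar protein nucleolin, gave 2400.1, 2833, 2857 and 2387. Of these 5 genes only Car2 is on the lists of oligodendrocyte genes used here.

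Lists of other oligodendrocyte genes were set beside the myelin genes, without a test of the difference. The lists, like the myelin genes, were chosen with earlier results of these data known. In 5 lists of 52 such genes, 23 had a probe set in the tables used here and 21 had a tested one. At 2 h 9 of the 21 were above the 1 h signal, with a median log2 difference of -0.10, beside 5 of the 6 myelin genes with a median of 0.22. The 2 h array was the highest for 5 of the 21 and the lowest for 9. On the brightest tested probe set of each gene, limma's trend test called 0 of them, and none was 2-fold from 1 h at 2, 4 or 6 h. On dimmer probe sets, 1 of Sox10 and 1 of Pdgfra were, with values given below.

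Among other myelin proteins, 3 of 6 tested genes were higher at 2 h than at 1 h. Gsn, the actin-severing protein gelsolin, gave 671, 1069, 823 and 668 at 1, 2, 4 and 6 h, and Sirt2, a deacetylase of myelin membranes, gave 1296, 1897.5, 1473 and 1318. Both were highest at 2 h and next highest at 4 h, as were the Mag probe sets. Jam3, a junctional adhesion molecule, had the widest 2 h difference of the list and it was downward, with 356, 184.5, 356 and 215.

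Myelin lipid genes were also divided at 2 h, with 2 of 4 higher. Ugt8a, which makes the myelin lipid galactosylceramide, gave 143, 238, 131 and 156 and so stood highest at 2 h. Cers2, a ceramide synthase for very long acyl chains, gave 205, 144, 217.5 and 225 and stood lowest there.

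Of the lineage transcription factors 2 of 4 were higher at 2 h. Sox10, required for terminal differentiation of oligodendrocytes, gave 1157, 945, 1041 and 973.5 on its brighter probe set and 286.5, 93.5, 102 and 83.8 on its dimmer one, so both were highest at 1 h. Nkx2-2, a factor of the same lineage, gave 205, 166, 285 and 254. Among genes of metabolism and junctions 2 of 5 were higher at 2 h, Car2 among them, and Apod, a lipid carrier, gave 1359, 1023, 1459 and 1064.

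Genes of oligodendrocyte precursors stood low at 2 h, with 0 of 2 above 1 h. Pdgfra, the growth factor receptor that marks these cells, gave 1188, 762, 752 and 1228 on its brightest probe set, high at 1 and 6 h and low at 2 and 4 h, which is the reverse of the order of Mal. The second Pdgfra probe set gave 147, 81.2, 206 and 299 and placed 4 h above 1 h, so the 2 probe sets agreed that 6 h was highest and 2 h below 1 h, and differed about 4 h. Vcan, a matrix proteoglycan that these cells also express, gave 222, 206.5, 246 and 295. Sox10, Pdgfra and Ugt8a were measured, while Olig1, Olig2 and Cspg4 had no probe set in the tables used here.

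**Figure D4:**
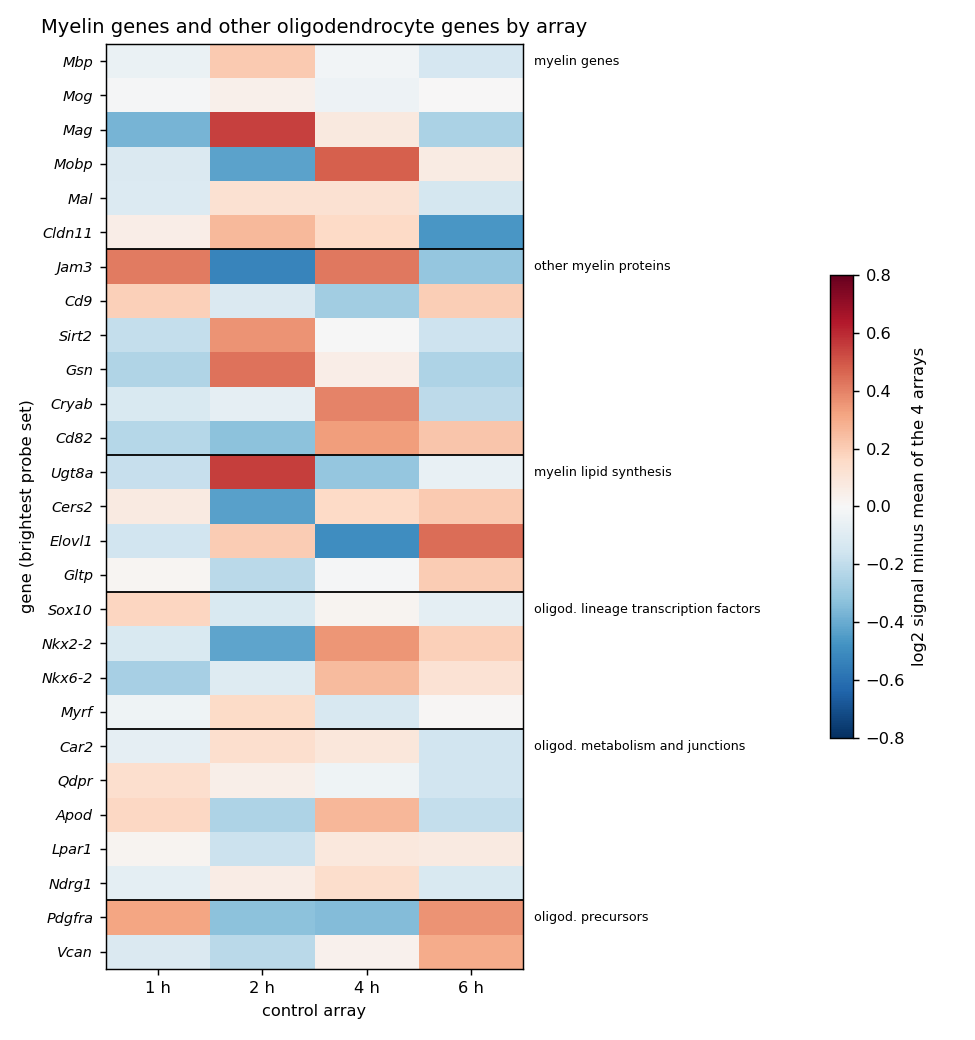
Log2 signal minus the mean of the 4 arrays (colour, red above and blue below) for the brightest tested probe set of each of 6 myelin genes and 21 other oligodendrocyte genes (rows, grouped by list) on the 1, 2, 4 and 6 h control arrays (columns). The 2 h column is red for 5 of the 6 myelin genes and mixed in the lists below them, with Gsn, Sirt2 and Ugt8a red and Jam3, Cers2 and Nkx2-2 blue.

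Markers of other cells and of neighbouring tissue are given for the same arrays. Of 7 tested genes of axons and nodes, 5 were higher at 2 h than at 1 h with a median log2 difference of 0.17. Nefm, a neurofilament subunit of large axons, gave 134, 573, 265 and 203, and Scn8a, the sodium channel of mature nodes, gave 281, 1236, 399 and 379.6. Ank3, the brightest of the 7, was lower at 2 h, with 4189, 2782, 4361 and 3666 on its brighter probe set. Its other probe set gave 3135, 1897, 4608 and 3052. Kcna1 was also lower at 2 h than at 1 h, with 1509, 1392, 1964 and 699. Summed over the 7, the signals were 7816, 8020.5, 8691 and 6562 at 1, 2, 4 and 6 h. A sum, here and below, is weighted towards the brightest probe sets of its list and does not compare genes.

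For astrocytes 5 of 7 tested genes were higher at 2 h, with a median log2 difference of 0.24 and sums of 19980.3, 21963, 20772 and 20660.2 at 1, 2, 4 and 6 h. Aqp4, the water channel of astrocyte endfeet, gave 945, 1315, 1221 and 754 on its brighter probe set and 139.8, 495, 145 and 109 on the other. Glul, glutamine synthetase, gave 724, 1006, 781 and 1054 on its brighter probe set but 571, 430.4, 613 and 579.9 on the other. The name of the brighter Glul probe set marks an incomplete or shared set of probes. Gfap was lower at 2 h, with 2165, 1740, 2354 and 2523 on its brighter probe set, but the dimmer one gave 294, 309, 310 and 268. Gja1 was lower on both probe sets, with 6125, 4422.5, 5936 and 5303 on the brighter and 471, 347, 267 and 365 on the other. For microglia 4 of 7 were higher, with a median of 0.09 and sums of 8918, 8914, 7875 and 8448. Cx3cr1, the fractalkine receptor, gave 273, 520.4, 419.5 and 404, and C1qa, a complement subunit, gave 905, 1623, 834.5 and 796. Both were among the 4 of 7 genes that stood highest at 2 h. Csf1r, Tyrobp and Ctss were lower at 2 h than at 1 h, with log2 differences of -0.37, -0.25 and -0.45. For Csf1r this is the brighter probe set, and the dimmer one was higher, with 281 at 1 h and 371 at 2 h. The summed signal, weighted towards bright probe sets, was not highest there.

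For neurons 2 of 4 were higher at 2 h, with a median of 0.23 and sums of 42645.5, 44257, 43146 and 42738.5. Those 2 were Stmn2, a microtubule regulator, and Eno2, neuronal enolase. Eno2 gave 4824, 6797, 4712.5 and 5096. Stmn2 gave 3805, 6304, 3943 and 3502 on its brightest probe set but 2583, 2497, 2725 and 3002 on the second brightest. The name of the brightest Stmn2 probe set marks an incomplete or shared set of probes, and a further Stmn2 probe set was too dim to test. CA1 pyramidal markers were higher in 1 of 3, with a median of -0.29 and sums of 7013, 5596, 7638 and 7499. Ccn3, listed under its older symbol Nov, gave 4235, 3096, 4390.3 and 4548, and Pou3f1, a POU factor, gave 484, 623, 764 and 443.

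Markers of dentate gyrus, vessels and blood were mostly lower at 2 h. Both tested dentate gyrus genes were lower, Lct with 383, 224, 359.5 and 279.8 and Dsp with 133, 90.5, 168 and 196. Endothelial markers were higher in 1 of 4, with a median of -0.31, and among them Pecam1, an adhesion molecule, gave 199, 112, 185.5 and 100.1 and Cldn5, a claudin of the blood-brain barrier, gave 419, 324, 620.3 and 457. Hba-a1, an alpha globin, was the single tested blood gene and gave 3105, 2452, 2378 and 2220.2.

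Choroid plexus and thalamus lie near the hippocampus, and their markers were divided at 2 h. Ttr, the main choroid plexus transcript, gave 222, 892, 107.5 and 356, with Igfbp2, a growth factor binding protein, at 317, 711, 332 and 350.3. Ramp3, a receptor accessory protein used as a thalamus marker, gave 57.4, 409.7, 217 and 207, and Prkcd, a protein kinase C, gave 407, 625, 423 and 565 on its brighter probe set and 328, 336, 361 and 338 on the other. Below their 1 h signal at 2 h were Kl, the klotho gene, with 309, 177.5, 183 and 270.5, and Calb2, calretinin, with 352.5, 329.5, 94.4 and 73.5. Of the choroid plexus list 2 of 3 tested genes and of the thalamus list 3 of 4 were higher at 2 h, with medians of 1.16 and 0.38 and sums of 849, 1780.2, 622 and 977 and of 1175, 1761, 1200.4 and 1166, while Folr1 and Aqp1, further choroid plexus markers, were too dim to test. The 6 Schwann cell genes listed had no probe set in the tables used here, and the dentate gyrus marker Prox1 had 57.9 at 1 h and 12.5 to 18.2 on the other arrays. The part that any of these tissues, or the RNA quality of the 2 h array, had in the myelin values was not tested.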

How the data were processed

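The values are deposited probe set intensities on a linear scale, 1 per probe set and array, and how the authors made them was not given in the sources used here. The means of the 4 arrays, with 2% of values trimmed at each end, were all 500.3, so the deposited intensities appear to have been scaled to one mean. They were used without further normalization. The floor, the filter and log2 were applied as stated with the results, and 66 control probe sets were left out. Symbols were taken from the platform annotation and matched to current RefSeq symbols for 10839 of 10855 probe sets with 1 symbol. Slopes were fitted with limma 3.58.1 in R 4.3.3 (2 residual degrees of freedom, mean-dependent variance prior, two-sided, Benjamini-Hochberg at 0.05), and the fit was tested on simulated data. Tables were made with Python 3.11.15 and pandas 2.3.3.

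All myelin probe sets are named. The rule also names, from each other list, the 2 tested genes farthest from 1 h at 2 h, then Ugt8a, Sox10, Olig1, Olig2, Pdgfra and Cspg4 where measured (a further gene of the rule is not reported here), and the 5 genes nearest the mean profile. Sirt2, Kl, Calb2, Folr1, Aqp1, Prox1, Ank3, Kcna1, Gfap, Gja1, Csf1r, Tyrobp and Ctss lie outside the rule and were added with their values in view. The genes and lists were chosen with earlier results of these data known. A gene entered a list through its brightest tested probe set, also where the name of that probe set marks an incomplete or shared set of probes. The number of arrays limits the precision. P-values by limma rest on the spread of these 4 samples around a straight line, moderated by a variance prior from all tested probe sets. They do not measure a spread between replicates of an hour. Alternatives covered normalization, floor, filter, probe sets, time scale, variance prior, fold, array compared against, and leaving out each array.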

Additional observations from a re-analysis of the deposited data

Results flagged for a closer look

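One of the 13 myelin probe sets had an array set apart from the other 3 by Dixon's criterion for 4 samples. Probe set 99048_g_at of Mobp stood at 2231 on the 2 h array, beside 478 (1 h), 697 (4 h) and 614 (6 h). The criterion was applied to linear signals, where the gap to the nearest array was 0.875 of the whole range, above the 95% critical value. On the log2 scale the arrays stood at -0.78, 1.44, -0.24 and -0.42 from their mean at 1, 2, 4 and 6 h. There the gap was a smaller share of the range, under the critical value, so the mark depends on the scale. Chance marks about 1 in 20 such groups, and 13 were examined. The name of 99048_g_at marks an incomplete or shared set of probes. The brightest Mobp probe set was lowest on the 2 h array.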

How the results depend on the processing

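The trend test called 0 probe sets under every alternative except leaving out the 2 h array, so leaving out each array gave 0 to 32, and 0 of these 32 were myelin probe sets. That fit has 1 residual degree of freedom. Centring arrays on their medians lowers every log2 difference from 1 h by 0.12 at 2 h, 0.11 at 4 h and 0.14 at 6 h. The medians of the myelin genes at 2 and 4 h stayed above 0 in every alternative run, lowest after median centring at 0.096 and 0.062. At 6 h the median was -0.18 when set against the mean of the other 3 arrays in place of the 1 h array. With a 1.5-fold limit in place of 2-fold, 5 of the 12 probe sets were higher at 2 h, beside 15.85% of all tested.

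The median log2 range of the myelin probe sets was 1.25 times that of all tested probe sets. This ratio was 1.06 after quantile normalization, 1.125 after median centring, 1.54 with the stricter filter, 1.03 with no filter, 0.517 with the probe sets of each myelin gene averaged and all others left single, and 1.13 to 1.41 on leaving out each array. The median distance from the mean profile, 0.16, was 0.123 with no filter, 0.128 with probe sets averaged and 0.106 to 0.164 on leaving out each array. Of 105 recomputed 2 h differences of single probe sets, 5 moved by more than the SD over arrays and 2 changed sign, both of Mog. All 5 came from quantile normalization, median centring or comparison with the mean of the other arrays. The remaining alternatives in this count changed the floor, the filter or the arrays left out. They could not move a 2 h difference of these probe sets, whose signals lay above the floor, so the count of 105 overstates the steadiness. The cause of the shifts was not tested.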
